A study of Trichoderma reesei with 12 samples.

Results

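In Trichoderma reesei, a filamentous fungus grown here on cellulose, 35 of the 10879 gene identifiers in the deposited table were low without the kinase gene tmk3 in constant light and in constant darkness alike, while staying within a 3-fold change with light in either strain. They were chosen by their measured values. Levels are CPM, counts per 1000000 of a library's column total, averaged over the 3 libraries of a group. The highest of the 4 group means had to reach 10 CPM. The strain ratio, (deletion strain + 1)/(parent + 1), had to be at most 0.4 in light and in darkness, and the light ratio, (light + 1)/(dark + 1), had to lie above 1/3 and below 3 in each strain. Identifiers among the first or last 50 numbers of their letter series were left out. Strain and light differences of the 35 are therefore what chose them, and are given below as a description. Calls from a fit across all genes are counted for them beside the share of all genes called. Counts from alternative fits are given too, and all of these counts support nothing.

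Tmk3 is a mitogen-activated protein kinase of the Hog1 type, named after the kinase of baker's yeast that acts at the end of the high-osmolarity glycerol pathway. In that pathway a sensor system passes a stress signal through a chain of kinases to Hog1, which enters the nucleus and changes the transcription of stress genes. In filamentous fungi kinases of this type are known for roles in osmotic and oxidative stress, the cell wall and development, and in some species they also carry light signals. T. reesei is known for the cellulases it secretes when it grows on cellulose.

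The libraries form 4 groups of 3, all from mycelium taken after 96 h. The deletion strain QM6a-delta-ku80-delta-tmk3 was grown in constant light (LL) and in constant darkness (DD), and so was its parent QM6a-delta-ku80. Every group thus lacks ku80, which acts in non-homologous end joining of DNA, and the labels call the parent WT. No complemented strain is named in the labels, so other differences the strains may carry cannot be told apart from the loss of tmk3, and the labels do not say whether the deletion strain is 1 transformant. Separate cultures are not stated for the 3 samples of a group either, so their spread may be technical.

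The libraries held 11599300 to 17702344 counts. A count of 0 allowed up to 0.259 CPM in the shallowest and 0.169 CPM in the deepest, for counting error only. The reference gene table has 9116 entries and shares 0 of the 10879 identifiers, and the file gives no gene names, so the 35 are called by their identifiers, no role can be stated for them, and whether tmk3 itself is among them cannot be read. Gene lengths are not in the table either, so CPM compares groups for a gene and not genes with each other. In RNA from whole mycelium, fewer cells of a kind and less RNA per cell cannot be told apart. Replicate 2 of the dark parent stood apart, with the lowest TMM scaling factor (0.761, against 0.925 to 1.11 in the other libraries), and values that it moves are also given without it.

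Few genes met the rule. Of 7203 identifiers with a highest group mean of at least 10 CPM, 249 had a strain ratio of at most 0.4 in light, 472 had it in darkness, and 115 had it in both. The limits on the light ratio removed 73 of the 115, of which 38 had a light ratio outside the limits in both strains, 15 in the deletion strain alone and 20 in the parent alone. Another 7 lay at the ends of their series. The rule turned round, with strain ratios of at least 2.5, was met by 86 genes. With library sizes scaled by TMM in place of column totals, 49 genes met the rule as lower and 70 as higher. Scaling by totals alone put the median strain difference of all tested genes 0.11 higher in light and 0.28 higher in darkness on the log2 scale than TMM did.

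**Figure D1:**
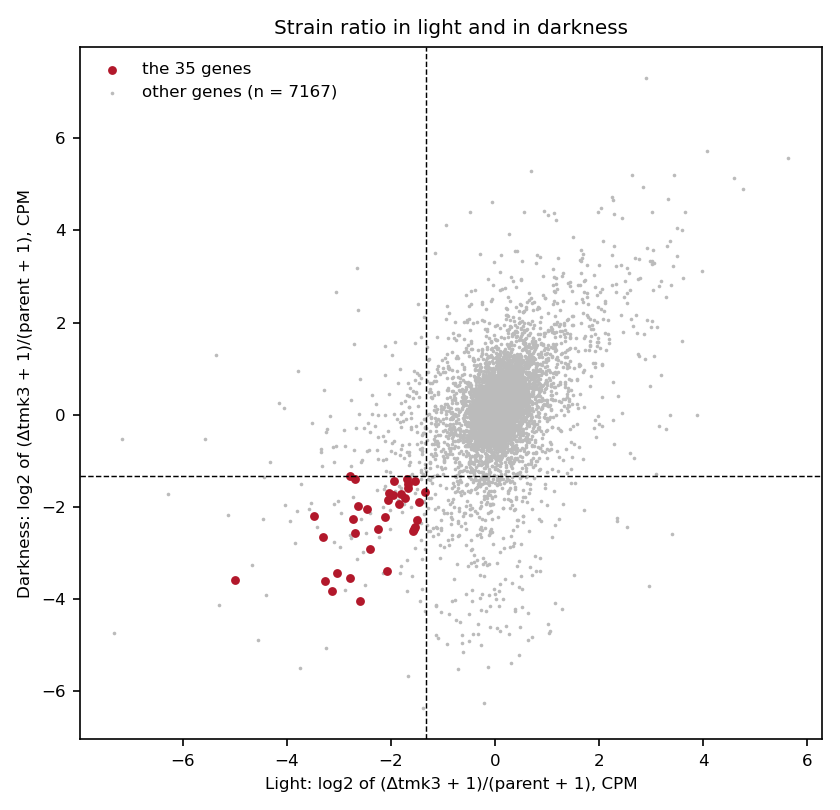
Each point is a gene with a highest group mean of at least 10 CPM that passed the count filter. The horizontal axis is the log2 strain ratio in light and the vertical axis the log2 strain ratio in darkness. Dashed lines mark the limit of 0.4, and the 35 genes sit below both, as the rule requires, among 7167 other genes.

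At the limit itself, the members with the largest of their strain ratios nearest to 0.4 were TrC0423W (0.391, in light) and TrC1215W (0.395, in darkness). Just outside were TrG0214W (0.408, in light) and TrA0351W (0.411, in light), which met every other part of the rule. The 35 ranged widely below it, with a median strain ratio of 0.238 in light (range 0.0314 to 0.391) and 0.217 in darkness (range 0.0604 to 0.395). Strain ratios of at most 0.2 in both conditions were seen for 9 of the 35, and 16 had a ratio above 0.3 in at least 1 condition. The ratio was lower in light for 18 and lower in darkness for 17.

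All 35 passed the filter on low counts. In light, the 3 deletion libraries lay below the 3 parent libraries for 35 of the 35, where 17.5% of all 8998 tested genes had that order. Darkness gave no overlap for 26 of the 35, against 11.5% of tested genes. By edgeR's quasi-likelihood test, with a call at an adjusted p (Benjamini-Hochberg) below 0.05, 27 of the 35 were called lower in light, where 9.78% of all tested genes were. For darkness 32 were called lower, against 21.6% of tested genes, and 27 were called in both, against 4.93%. The rule used these contrasts, so nothing is read from these counts. TrB0776C, TrE0251W and TrB1595W were called in neither condition. Without replicate 2 of the dark parent the light call was made for 35 of the 35, where 16.2% of all tested genes were called lower. Fitting the 6 light libraries alone called more of all genes too. Its share of genes called lower is not given here, so members are not counted for it. Nothing is read from these counts either.

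Summed over the 35, the deletion strain in light held 1435 ± 383 CPM and the parent 5670.2 ± 714 CPM (SD, n = 3). In darkness the sums were 1991 ± 905 CPM in the deletion strain and 7795 ± 2784 CPM in the parent. The dark parent's sum was 10947 CPM in replicate 2, against 6766 and 5672 CPM in the other libraries of the group. TrB0776C alone made up much of these sums and of their spread. Without it the sums were 695 ± 61.8 CPM in the deletion strain and 3268 ± 168 CPM in the parent in light, and in darkness 853 ± 175 CPM in the deletion strain and 4777 ± 687 CPM in the parent. The highest group mean was the dark parent for 25 of the 35 and the light parent for 10, and without replicate 2 of the dark parent these were 18 and 17.

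**Figure D2:**
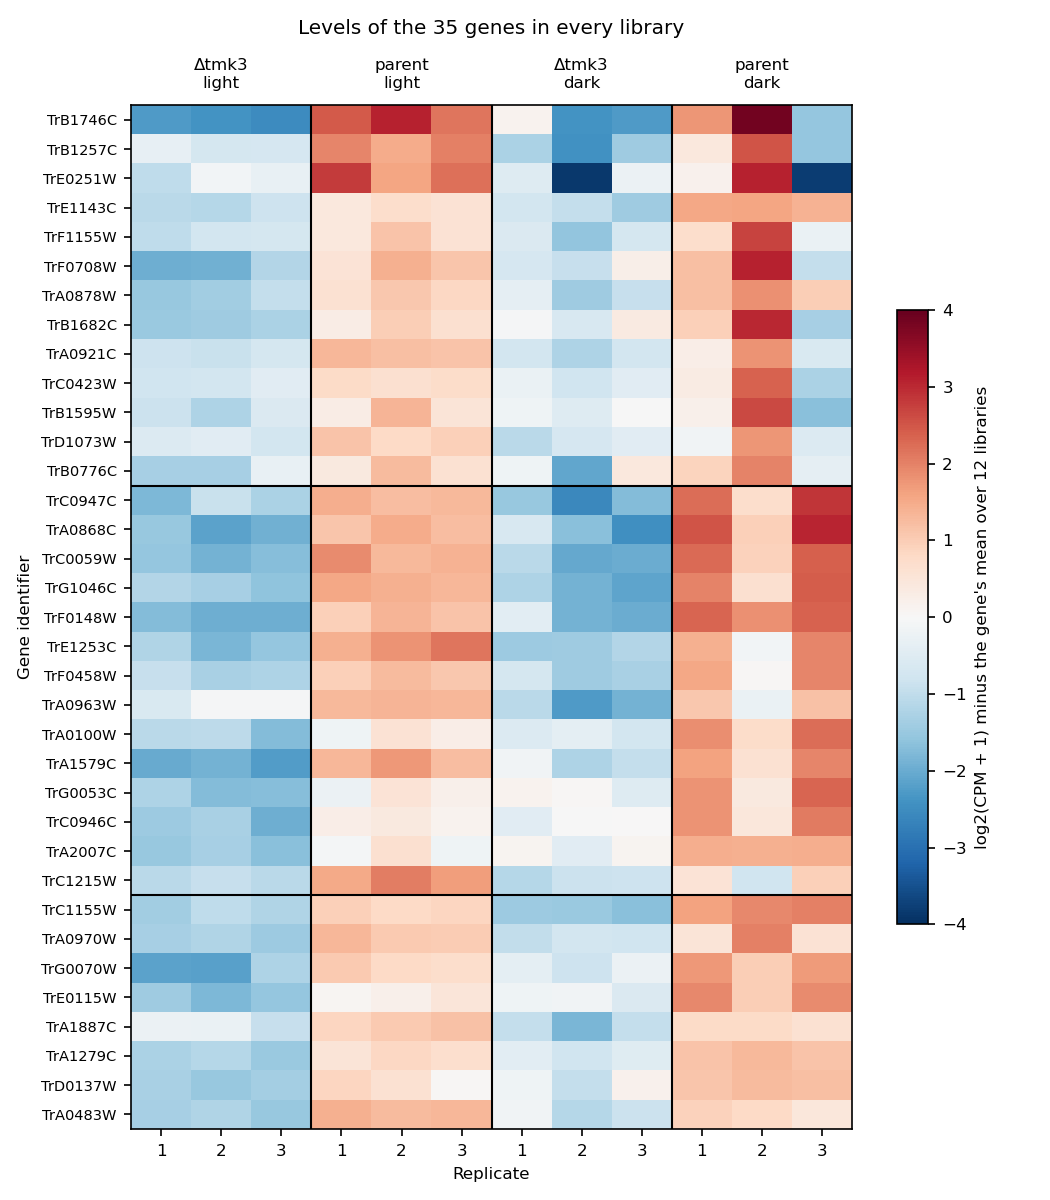
Rows are the 35 genes and columns the 12 libraries, in 4 groups of 3 replicates. Colour gives log2(CPM + 1) minus the gene's mean over all libraries, and horizontal lines divide the genes by the order of their dark parent replicates: replicate 2 highest and 3 lowest (top, 13 genes), replicate 3 highest and 2 lowest (middle, 14 genes), and other orders (bottom, 8 genes). The deletion columns are mostly blue in both conditions, and the dark parent columns differ from replicate to replicate in opposite ways in the top and middle blocks.

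The dark parent libraries divided the genes. In 13 of the 35 (37.1%) replicate 2 was the highest and replicate 3 the lowest, an order found in 16.6% of the 7202 tested genes with a highest group mean of at least 10 CPM. In 14 (40.0%) replicate 3 was the highest and replicate 2 the lowest, against 52.9% of those genes, and 8 had another order. The rule used the dark parent mean, which 1 high library can raise, so these shares are not independent of how the 35 were chosen. The first set held 12.4 times as much in replicate 2 as in replicate 3 at the median (range 1.14 to 137), and the second held 3.39 times as much in replicate 3 as in replicate 2 (range 1.02 to 5.90). This division was made after the values were seen, and it fixes the direction in which the dark strain ratio moves when replicate 2 is left out: up in the first set and down in the second. The size of the move is therefore given as a description. Without replicate 2 of the dark parent its median became 0.591 in the first set, against 0.215 with it, and 9 of the 13 genes passed above 0.4. Of the other 22 genes, 0 passed above 0.4. Their median was 0.142 without it and 0.182 with it in the second set, and 0.289 and 0.263 in the third.

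For the genes of the second set every deletion library lay below every parent library, in light and in darkness. Among all 8998 tested genes 4.93% had that order in both conditions. For TrC1215W the gap was narrow in darkness, with 0.910 CPM in the highest deletion library and 0.940 CPM in the lowest parent library. The split by dark parent order bears on overlap in darkness, so this is a description. TrC0947C had 45.0, 84.8 and 64.5 CPM in the deletion libraries in light, against 435, 372 and 389 CPM in the parent. In darkness it had 54.96, 25.7 and 46.9 CPM in the deletion libraries, against 745, 256 and 1159.7 CPM in the parent. Even the lowest parent library thus held several times the highest deletion library in each condition, and the log2 fold change was -2.73 (SE 0.44) in light and -4.30 (SE 0.47) in darkness. TrA0868C had 47.7, 30.1 and 35.5 CPM without tmk3 in light, against 301, 387 and 327 CPM in the parent. Its dark values were 87.4, 42.4 and 24.1 CPM in the deletion libraries and 801, 269 and 1143 CPM in the parent, again without overlap. The dark strain ratio of TrA0868C was 0.0708, and leaving out replicate 1 of the deletion strain gave 0.0464.

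TrC0059W held 1.90, 1.27 and 1.61 CPM in the deletion libraries in light, against 30.4, 19.9 and 21.3 CPM in the parent. Its dark libraries held 2.998, 1.06 and 1.15 CPM without tmk3 and 39.6, 15.1 and 43.4 CPM with it. The strain ratio was 0.104 in light and 0.0812 in darkness, and the light ratio was 0.947 in the deletion strain and 0.739 in the parent, so this gene kept nearly the same low level in the deletion strain whatever the light. TrG1046C was alike, with 6.81, 6.03 and 4.74 CPM in the deletion libraries in light against 49.9, 46.5 and 42.8 CPM in the parent. In darkness it had 6.46, 3.74 and 3.09 CPM without tmk3 and 68.8, 26.1 and 92.9 CPM in the parent.

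TrE1253C, with a higher parent mean in light than in darkness, had 8.79, 5.39 and 6.69 CPM in the deletion libraries in light, against 59.3, 77.3 and 98.3 CPM in the parent. The dark values were 7.15, 7.34 and 9.10 CPM in the deletion libraries and 59.4, 19.99 and 85.9 CPM in the parent. The strains did not overlap in either condition. TrF0148W was at a few reads in the deletion strain in light, with 3, 1 and 1 counts against 126, 139 and 108 counts in the parent. In darkness it had 28, 2 and 1 counts in the deletion libraries, against 312, 225 and 287 counts in the parent. Replicate 1 of the dark deletion strain therefore held most of what was left, and without it the dark strain ratio was 0.0572 in place of 0.0927.

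TrG0053C had 30.3, 21.1 and 21.9 CPM in the deletion libraries in light against 61.2, 106 and 84.1 CPM in the parent, and in darkness 80.1, 74.7 and 50.6 CPM in the deletion libraries against 256, 96.2 and 374 CPM in the parent. Its parent light ratio of 0.349 was the lowest of the 35, just inside the limit. TrA0963W, TrA2007C and TrC1215W had the other extreme light ratios, 2.72 as the highest and 0.365 as the lowest in the deletion strain, and 2.56 as the highest in the parent. TrC1215W was near the count limit in darkness, with 7, 12 and 15 counts in the deletion libraries and 61, 15 and 77 counts in the parent. Of the others, TrF0458W, TrC0946C, TrA1579C and TrA0100W had strain ratios between 0.0891 and 0.352 in light and between 0.179 and 0.305 in darkness.

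**Figure D3:**
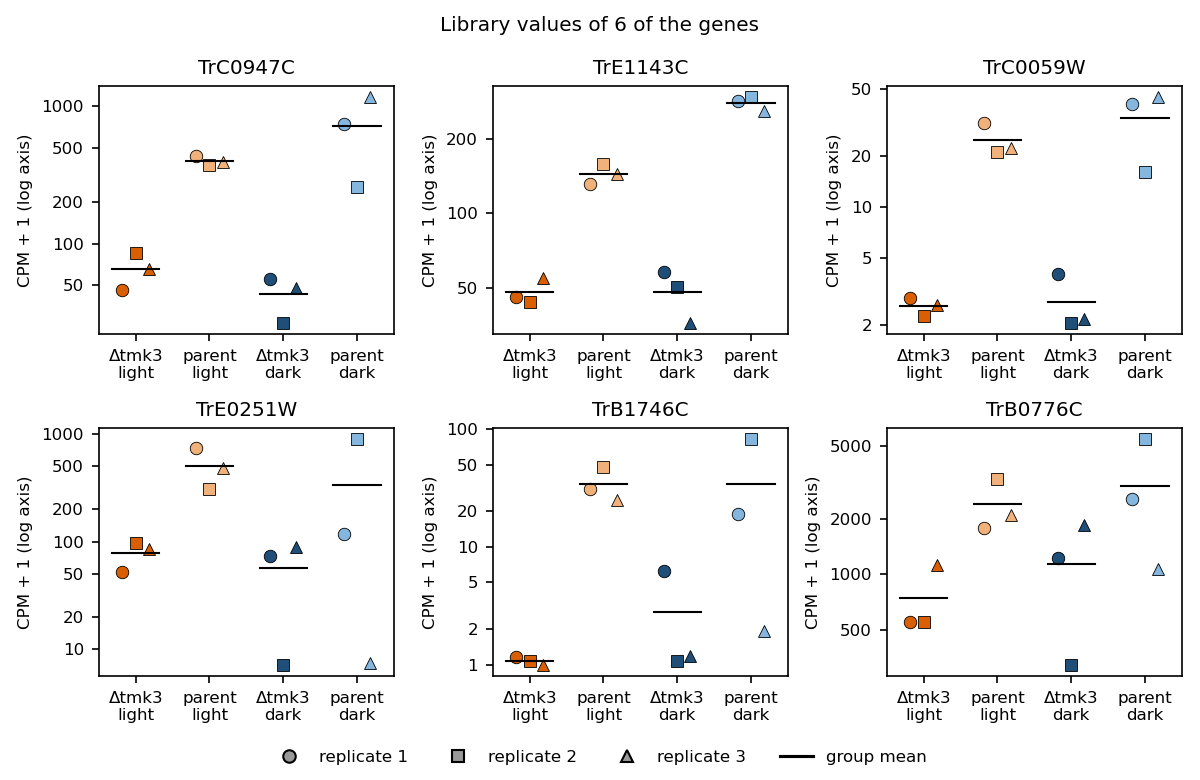
Each panel shows a gene, with CPM + 1 on a logarithmic vertical axis, the 4 groups on the horizontal axis, a symbol per replicate and a line at the group mean. In the upper panels (TrC0947C, TrE1143C, TrC0059W) deletion and parent libraries are apart in both conditions. In the lower panels (TrE0251W, TrB1746C, TrB0776C) they are apart in light, while the dark parent libraries reach from the deletion level to far above it.

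In the first set the strains did not overlap in light, while in darkness they overlapped for 9 of the 13 genes. The dark parent order that defines the set bears on this overlap in darkness. Among all 8998 tested genes every deletion library lay below every parent library for 17.5% in light and 11.5% in darkness. TrE0251W had 51.1, 96.7 and 83.7 CPM in the deletion libraries in light, against 731, 309.8 and 478 CPM in the parent. In darkness it had 73.0, 6.21 and 88.7 CPM without tmk3, against 116, 889.8 and 6.48 CPM in the parent, a spread of 119-fold among the parent replicates on the CPM + 1 scale. The dark groups overlapped, and the dark strain ratio of 0.168 became 0.913 without replicate 2 of the dark parent. TrB1746C had 2, 1 and 0 counts in the deletion libraries in light and 529, 660 and 317 counts in the parent. Each group's count was divided by the summed library totals of that group. For TrB1746C this gave a ratio of 401 in favour of the parent (95% exact interval 137 to 1948, counting error only). Its dark values were 5.23, 0.0705 and 0.182 CPM in the deletion libraries, against 18.1, 80.8 and 0.936 CPM in the parent. Here too the dark groups overlapped, replicate 1 of the deletion strain lying above replicate 3 of the parent, and the dark strain ratio of 0.0824 became 0.269 without replicate 2 of the parent. Leaving out the deletion strain's replicate 1 gave 0.0328.

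TrB0776C, the member with the most counts, had 549, 549 and 1122 CPM in the deletion libraries in light and 1794, 3310.1 and 2101 CPM in the parent. In darkness the deletion libraries held 1229.9, 323 and 1859.6 CPM and the parent libraries 2569, 5411 and 1075 CPM, so the groups overlapped. Its dark strain ratio of 0.377 became 0.625 without replicate 2 of the parent. TrC0423W had 149, 157 and 189.9 CPM without tmk3 in light, against 439, 403 and 429 CPM in the parent. Its dark deletion libraries held 215, 148 and 188 CPM, against 324, 1334 and 107 CPM in the parent. The 3 light parent libraries of TrC0423W were close to each other, while in darkness replicate 3 of the parent lay below every deletion library, and the ratio of 0.314 became 0.854 without replicate 2.

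The same pattern held for TrB1682C, which had 9.14, 9.59 and 10.9 CPM in the deletion libraries in light and 34.1, 55.5 and 43.5 CPM in the parent. In darkness its values were 26.7, 17.2 and 35.6 CPM without tmk3 and 54.0, 232 and 10.3 CPM in the parent, and the dark strain ratio moved to 0.829 without replicate 2 of the parent, against 0.276 with it. TrF1155W and TrA0921C did not overlap in darkness, but their ratios were 0.435 and 0.591 without that library, against 0.179 and 0.307 with it. TrF0708W went to 0.546, against 0.207, and TrD1073W to 0.772, against 0.368. TrB1595W reached 1.18, against 0.333, so that its deletion mean then lay above its parent mean. TrB1257C moved to 0.388, against 0.133, within the strain ratio limit. Its parent light ratio was then 4.29, outside the limits, so it no longer met the rule.

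In this set the dark deletion libraries varied as well. Replicate 2 of the dark deletion strain was the lowest of its group for 11 of the 13 genes, against 6 of 14 in the second set and 5 of 8 in the third. In light, replicate 2 of the parent was the highest for 8 of the 13, for 10 of 14 in the second set and for 1 of 8 in the third. Shares over all genes are not given for these orders. TrE1143C and TrA0878W had the smallest margins of the set, with replicate 2 of the dark parent at 1.14 and 1.88 times replicate 3. TrE1143C had 45.1, 43.1 and 54.1 CPM in the deletion libraries in light against 130.2, 157 and 144 CPM in the parent, and in darkness 57.2, 49.5 and 35.4 CPM in the deletion libraries against 282, 292 and 257 CPM in the parent. Its groups were far apart in both conditions, with log2 fold changes of -1.71 (SE 0.19) in light and -2.86 (SE 0.20) in darkness.

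**Figure D4:**
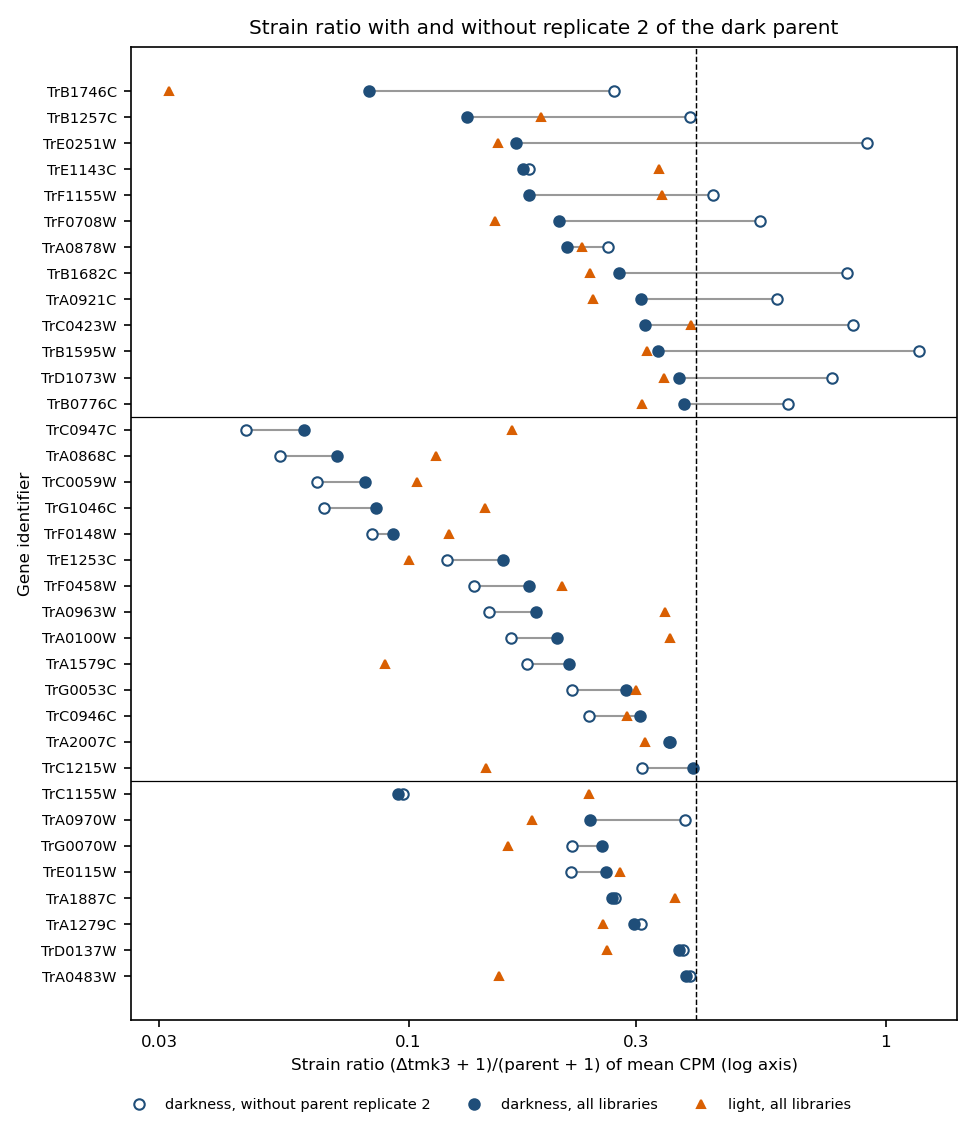
For each of the 35 genes the horizontal logarithmic axis gives the strain ratio of mean CPM in light (triangles), in darkness (filled circles) and in darkness without replicate 2 of the parent (open circles), with the limit of 0.4 dashed. Genes are in the blocks of the heat map. In the top block 9 of 13 open circles lie above the limit, and in the lower blocks 0 of 22 do.

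Among the 8 genes of other orders, TrG0070W had 38.7, 37.4 and 73.5 CPM in the deletion libraries in light, against 357, 300.5 and 282 CPM in the parent. In darkness it had 133, 97.9 and 148 CPM without tmk3 and 585, 346 and 569 CPM in the parent. The deletion strain held less of it in light than in darkness, a light ratio of 0.3997, against 0.628 in the parent. TrC1155W, named after its values were seen, had replicates close to each other, with 13.9 ± 1.94 CPM in the deletion strain and 61.4 ± 3.90 CPM in the parent in light (SD, n = 3). Its dark means were 10.8 ± 0.923 CPM in the deletion strain and 123 ± 18.2 CPM in the parent, and the fitted strain difference was a log2 fold change of -3.82 (SE 0.18) in darkness and -2.26 (SE 0.17) in light. The other 6 (TrE0115W, TrA1279C, TrA0483W, TrA1887C, TrA0970W and TrD0137W) had strain ratios of 0.155 to 0.361 in light and 0.240 to 0.381 in darkness.

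With all libraries, levels were more often lower in light than in darkness, and in the parent this count depended on replicate 2 of the dark group. The mean in light was below that in darkness for 24 of the 35 in the deletion strain and 25 in the parent, for 20 in both strains, and above it in both for 6. Without that library it was below for 18 of the 35 in the parent and for 14 in both strains. The median light ratio was 0.736 in the deletion strain and 0.698 in the parent, against 0.992 and 1.08 over the 7202 genes at that level. Without replicate 2 of the dark parent the parent's median was 0.835 over the 35 and 1.04 over the 7202 genes. By set it moved from 0.721 to 1.96 in the first, from 0.647 to 0.509 in the second and from 0.668 to 0.687 in the third. In the first and second sets the split fixes the direction of this move. These light ratios describe the 35 and were not tested, and the strain and light comparisons share libraries.

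The 35 had a higher median spread between replicates than all genes at that level. The median coefficient of variation over the 35 was 0.209 in the deletion strain and 0.161 in the parent in light, against 0.0642 and 0.113 over the 7202 genes. In darkness it was 0.341 in the deletion strain and 0.566 in the parent, against 0.111 and 0.257. Without replicate 2 the dark parent's median was 0.211 over the 35 and 0.0990 over the 7202 genes. The dark parent mean is part of the rule, so this spread is not independent of how the 35 were chosen. The rule favours low levels in the deletion strain. There the median of the 35 was 6.96 CPM in light and 9.55 CPM in darkness, against 51.9 and 53.3 CPM over the 7202 genes. In the parent, with all libraries, it was 33.5 CPM in light and 50.9 CPM in darkness, against 48.5 and 47.7 CPM. These levels are not corrected for gene length. The median log2 deviation of the 35 from their group mean was 0.25 in replicate 1 and -0.34 in replicate 2 of the dark deletion strain, where it was within 0.04 of 0 over the 7202 genes. The first replicate of that group was the highest of its 3 libraries for 19 of the 35.

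Positions along the identifiers were not used by the rule, apart from the series ends. An identifier is made of a series letter, a running number and the letter W or C, and consecutive numbers are read here as neighbouring genes, which the file does not state. The 35 came from all 7 series, with 11 in A, 5 in B, 6 in C, 2 in D, 4 in E, 4 in F and 3 in G, or 0.227% (D) to 0.762% (A) of the identifiers of each series that reached 10 CPM away from the ends. W stood in 54.3% of the 35 and in 49.5% of those 6924 identifiers. Only TrC0946C and TrC0947C were next to each other. The next closest were TrA0963W and TrA0970W, 7 numbers apart, and TrA0868C and TrA0878W, 10 apart.

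TrC0946C had 4.83, 5.47 and 3.13 CPM in the deletion libraries in light, against 18.2, 19.7 and 16.3 CPM in the parent. In darkness it had 10.7, 14.8 and 15.0 CPM without tmk3, against 53.9, 20.5 and 65.2 CPM in the parent. The dark parent libraries thus stood in the same order as for its neighbour TrC0947C, while the dark deletion libraries did not. That dark parent order, replicate 3 highest and replicate 2 lowest, was found in 52.9% of the 7202 genes. In the deletion strain the light ratio was 0.378 for TrC0946C and 1.51 for TrC0947C. Whether reads were shared between neighbours in the counting was not tested, since the strand setting is not given in the sources used here.

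Identifiers next to the 35 were also often lower. Of 49 tested immediate neighbours that are not members, 12 (24.5%) were called lower in light, against 9.78% of all tested genes, and 3 (6.12%) higher, against 10.8%. In darkness 23 (46.9%) were called lower, against 21.6%, and 8 (16.3%) higher, against 19.1%. Without replicate 2 of the dark parent 16 of 51 (31.4%) were called lower in light and 20 of 51 (39.2%) in darkness, where 16.2% and 21.0% of all tested genes were. At a distance of 2 numbers 18.2% were called lower in light and 11 of 55 in darkness, and over distances of 2 to 5 numbers the shares lay between 6.45% and 18.2% in light and between 19.0% and 30.6% in darkness. Whether these shares differ from those of other identifiers was not tested.

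**Figure D5:**
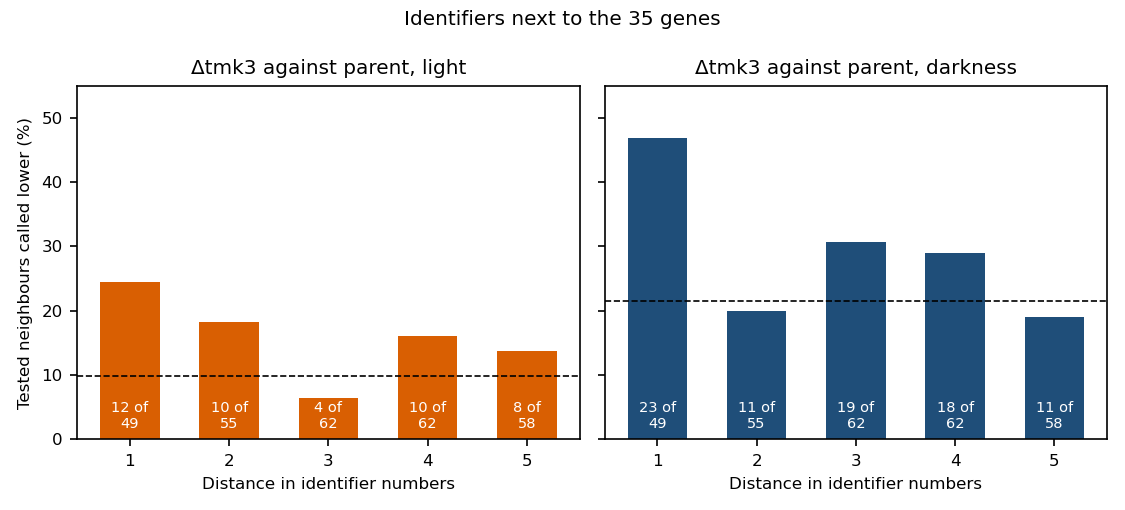
Bars give the percentage of tested non-member identifiers called lower without tmk3 (edgeR, adjusted p below 0.05) at distances of 1 to 5 identifier numbers from the 35 genes, in light (left) and darkness (right), with the counts inside. The dashed line is the percentage over all tested genes, 9.78% in light and 21.6% in darkness, and the bar for immediate neighbours is the tallest in each panel.

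Immediate neighbours with a strain ratio of at most 0.4 in both conditions numbered 4, and each had a light ratio outside the limits in at least 1 strain. TrA1280W, beside TrA1279C, averaged 0.0862 ± 0.149 CPM in the deletion strain and 22.1 ± 13.5 CPM in the parent in light, and in darkness 2.27 ± 3.76 CPM in the deletion strain and 48.6 ± 25.7 CPM in the parent (SD, n = 3). TrA1580C, beside TrA1579C, averaged 1.34 ± 0.699 CPM in the deletion strain and 81.3 ± 5.70 CPM in the parent in light, and in darkness 16.8 ± 2.82 CPM in the deletion strain and 79.2 ± 35.4 CPM in the parent. TrA1579C itself had 0.330 ± 0.154 CPM without tmk3 and 13.9 ± 2.76 CPM in the parent in light, and in darkness 2.36 ± 1.37 CPM without tmk3 and 14.5 ± 6.57 CPM in the parent, so both identifiers were nearer to 0 in the deletion strain in light. TrB1745W, beside TrB1746C, had strain ratios of 0.387 in light and 0.223 in darkness, and TrD0136W, beside TrD0137W, had 0.176 and 0.0775.

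Of the 35, 12 met the rule whichever of the 12 libraries was left out. Without replicate 2 of the dark parent 23 identifiers met the rule, of which 19 were among the 35. The 16 lost comprised 9 whose dark strain ratio passed 0.4, 6 whose parent light ratio left the limits while the dark ratio stayed low, and 1 that fell below 10 CPM. The light strain ratio moved by over 1.5 times for 0 of the 35 when any light library was left out. The dark strain ratio did so for 14, in 12 of them most without replicate 2 of the parent and in 2, TrA0868C and TrF0148W, most without replicate 1 of the deletion strain. With tmk3_DD replicate 1 left out as well, 28 identifiers met the rule.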

How the data were processed

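Values are the authors' deposited counts of reads per gene identifier in 12 libraries, whole numbers that were not normalized. Per the submitters' processing notes, HISAT2 2.2.1 was used. The name of the deposited table gives featureCounts as the counting tool, and its version, strand setting and filters are not given here by any source. Per the labels' protocols, libraries came from a stranded kit after depletion of ribosomal RNA. Columns were assigned to samples through the labels that carry their names, and 0 were left unused.

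The members and the lists were chosen with earlier results of these data known. Genes named in detail were the 10 members with the highest group mean, the 10 with the lowest larger strain ratio, adjacent members, those nearest the limit, the extreme light ratios and the 3 with the widest replicates, and other names were added after their values were seen.

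Counts were fitted in R 4.3.3 with edgeR 4.0.16 (filterByExpr, TMM, 4 group means, all 12 libraries), leaving 8998 genes, and p-values were adjusted over all of them by the Benjamini-Hochberg method. The procedure was tested on simulated data. Each SE was taken as |log2 fold change|/sqrt(F). DESeq2 1.42.0 was an alternative, as were other scalings, limits and left-out libraries. Ratios and figures were made in Python 3.11.15.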

Additional observations from a re-analysis of the deposited data

How the results depend on the processing

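The rule gave 35 genes. With a strain ratio limit of 0.3 it gave 19, with 0.5 it gave 55, and with a level of at least 30 CPM it gave 23. Leaving out each library in turn gave 23 (without ku80_DD replicate 2) to 40. Group medians in place of means gave 26, of which 19 were among the 35, a pseudocount of 0.1 gave 30, TMM-scaled CPM 49 and DESeq2 size factors 51. The genes called for the deletion in light numbered 1849, and 3024 when the 6 light libraries were fitted alone, 1288 to 2818 when each library was left out in turn (the highest without ku80_DD replicate 2), and 2808 without both ku80_DD replicate 2 and tmk3_DD replicate 1, an alternative chosen after seeing the data. For darkness 3664 were called, 2183 in the 6 dark libraries alone, and 2741 to 4002 without each library in turn. Scaling by totals gave 2484 higher and 1038 lower in darkness, against 1723 and 1941 by TMM. The number of members called lower moved over these alternatives, as did the total over all genes. It is not printed here, since the share of all genes called lower is not given for each alternative. The rule also used these contrasts. Fold changes of the genes chosen by the naming rule kept their sign in every alternative. Members were chosen for low strain ratios in these same libraries, so nothing is read from the kept sign. TrB1595W, which is outside the naming rule, turned in darkness without ku80_DD replicate 2 (strain ratio 1.18, against 0.333). The cause of these differences was not tested.

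Between the strains in each light condition, deviations of samples with the same replicate number had correlations between -0.47 and 0.06 across genes. The highest with another number was 0.51. Deviations from the mean of 3 libraries depend on each other, so whether the numbers pair samples cannot be told from these values. The main fit used no replicate block. A fit with the replicate number as a block called 1587 for light and 3159 for darkness. Depth limits the members at a few counts, such as TrB1746C and TrF0148W in the deletion strain, where the fit's prior count bears on the fold change.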
